A study of Mus musculus with 6 samples.

Results

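The Pi16 or Dpp4 adventitial-like stem fibroblasts of mouse Achilles tendon were taken as the barcodes with at least 1000 unique molecular identifiers (UMIs), at least 200 genes and at most 5% mitochondrial UMIs that carried Pdgfra (1 UMI or more), Ly6a (2 or more) and Pi16 or Dpp4 (2 or more together), and no UMI of Scx, Ptprc or Cdh5. This rule found 9096 cells among 32807 Pdgfra cells, 63329 barcodes past the quality limits and 84194 barcodes in all. The members were thus selected on the UMIs of these 7 genes, and their levels and every difference between the members and the other Pdgfra cells are descriptions without a test. The remaining 23711 Pdgfra cells are called the other Pdgfra cells.

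Fibroblasts that carry Pi16 and Dpp4 line the outer coat of vessels and the sheets of loose connective tissue around organs, and in several tissues they are described as a reserve from which other fibroblasts arise. Pi16 is a secreted or membrane-anchored protein of the CAP family, Dpp4 a membrane peptidase, Ly6a (Sca-1) a surface antigen of mouse stem and progenitor cells, and Pdgfra a growth factor receptor of fibroblasts. Scx, the transcription factor of tendon cells, Ptprc, the leukocyte antigen CD45, and Cdh5, the cadherin of endothelial junctions, served to leave other cell types out. In tendon, cells of this kind belong to the sheath and the tissue around the fascicles, outside the dense fibres made by tenocytes.

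All mice were Gli1-CreERT2; Ai9 reporters given tamoxifen, in which a Cre driven from the Gli1 locus switches on a lasting red label in cells that express Gli1 at that time and in their descendants. The Achilles tendons were uninjured, or were taken 7 or 21 days post injury (dpi) by tenotomy, with 8 mice for each time and 24 in all. Sorting gave labelled (Gli1+) and unlabelled (Gli1-) cells, and droplet 3 prime sequencing gave 1 library for each of the 6 conditions. Neither the ages nor the number of mice behind each library is given in the sources used here, and no map ties cells to mice, so no spread between mice could be had and no test between conditions was made. The 95% intervals below cover counting error only.

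The libraries differed in ways that bear on the members. Total depth ran from 72196599 to 135202247 UMIs per library, and the median member of uninjured tendon, 7 dpi and 21 dpi held 11264, 9857 and 9409.5 UMIs in the Gli1+ sort and 7399.5, 11211.5 and 9392.5 in the Gli1- sort. The labels state equal sexes, but Xist without any Y-linked UMI was seen in 71.1% of members in Gli1+ uninjured, 0% in Gli1- uninjured and both 7 dpi libraries, and 95.5% and 95.7% in the Gli1+ and Gli1- 21 dpi libraries. Time and sex therefore cannot be told apart between 7 and 21 dpi in either sort, nor between uninjured tendon and 21 dpi in the Gli1- sort. Pairs of libraries shared 17 to 38 barcodes past the quality limits, and at most 1 of these was a member in both.

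RNA of other cell types was present among the members. Levels are given in CPM, the UMIs of a gene summed over the cells of a group per 1000000 UMIs of that group. Krt14, a keratin of the epidermis, stood at 67.4, 1472 and 273 CPM in the Gli1+ members, in time order, and at 0, 15.4 and 82.9 CPM in the Gli1- members. At an equal depth of 3000 UMIs per cell, 87.1% of the Gli1+ members at 7 dpi and 94.9% of the endothelial cells of that library held a Krt14 UMI. The 10 epidermal genes listed summed to 19.3 to 4462 CPM over the 6 libraries, the 10 endothelial genes to 15.7 to 164 CPM, the 12 immune genes to 11.97 to 60.5 CPM and the 4 hemoglobin genes to 1.31 to 574 CPM. Endothelial cells (Cdh5 and Pecam1 present, Pdgfra absent) of the same library are set beside the members below, since free RNA would reach them too. They are no measure of free RNA alone, since they make genes of their own, with a Fabp4 UMI in 58.7% to 98.0% of them at equal depth. Their number ran from 104 cells with 610747 UMIs in Gli1+ 7 dpi to 3057 cells in Gli1- uninjured. A gene passed the fold in them where it did so in both sorts.

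Members made up between 21.2% and 33.96% of the Pdgfra cells of a library. Gli1+ uninjured tendon had 582 members, a share of 29.95% (27.9 to 32.0), 7 dpi had 1242, or 23.1% (22.0 to 24.3), and 21 dpi had 2004, or 33.96% (32.8 to 35.2). In the Gli1- sort the share was 21.2% (20.2 to 22.3), 27.3% (26.3 to 28.3) and 31.7% (30.6 to 32.9), from 1258, 2010 and 2000 members. The 21 dpi share was the highest of its sort in both, but in the Gli1- sort the order of 7 and 21 dpi turned over all cells past the quality limits (18.4% and 16.6%) and with 1 UMI of Pi16 and Dpp4 in the rule. In the Gli1+ sort the excess of 21 dpi over uninjured was mostly lost with the study's filters and likely doublets removed. It was mostly lost among cells with Xist and no Y-linked UMIs as well. The 7 dpi share lay below uninjured in the Gli1+ sort and above it in the Gli1- sort, but over all cells past the quality limits the Gli1+ share was 7.74%, 12.3% and 18.7%, above uninjured at 7 dpi. The dip in the Gli1+ sort did not persist at equal depth. After thinning every cell to 3000 UMIs, the shares were 16.5%, 16.7% and 23.5% in the Gli1+ sort and 13.1%, 19.8% and 22.8% in the Gli1- sort. Thinning took the Gli1+ members from 582 to 213 in uninjured tendon and from 1242 to 446 at 7 dpi. The Gli1+ Pdgfra cells, the denominator, went from 1943 to 1293 and from 5372 to 2668. At 3000 UMIs, 69.3% and 48.5% of the other Pdgfra cells of these libraries still held a Pdgfra UMI. Since the rule asks for UMIs of single genes, a lower level per cell of Pi16, Dpp4 or Pdgfra and fewer cells with that gene cannot be told apart.

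**Figure D1:**
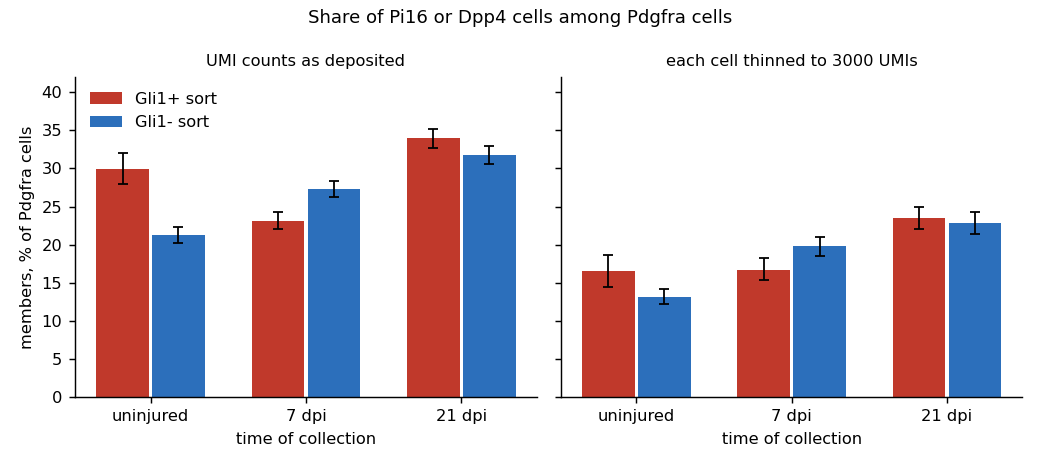
Members as a percentage of the Pdgfra cells of each library, as deposited and after thinning each cell to 3000 UMIs, with exact binomial 95% intervals. The Gli1+ share of 7 dpi lies below that of uninjured tendon as deposited (23.1% against 29.95%) and level with it after thinning (16.7% against 16.5%).

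The gene pair behind the rule changed its balance with injury. Pi16 stood at 817, 745 and 1105 CPM in the Gli1+ members and at 751, 845 and 1087 CPM in the Gli1- members, in the order uninjured, 7 dpi and 21 dpi. Dpp4 stood at 199, 32.0 and 53.1 CPM in the Gli1+ members and at 255, 41.7 and 41.1 CPM in the Gli1- members, so that every injured library lay below both uninjured ones. In the other Pdgfra cells Dpp4 took the same course at a lower level, from 41.4 to 6.11 and 6.83 CPM in the Gli1+ sort and from 32.9 to 6.32 and 5.89 CPM in the Gli1- sort. In endothelial cells Dpp4 lay at 11.7, 4.91 and 0.514 CPM and at 7.63, 2.85 and 2.73 CPM, past the 2-fold decrease as well. The values of 4.91 and 0.514 CPM rest on very few UMIs. The Gli1+ endothelial cells held 610747 and 1943737 UMIs of all genes at 7 and 21 dpi. Cells with both transcripts formed 54.8% (50.7 to 58.9) and 56.6% (53.8 to 59.4) of the uninjured Gli1+ and Gli1- members, 21.5% (19.2 to 23.9) and 25.2% (23.3 to 27.2) at 7 dpi, and 26.2% (24.3 to 28.2) and 23.2% (21.4 to 25.1) at 21 dpi. Members with Pi16 alone took the remainder after injury, at 72.4% to 77.4%, and members with Dpp4 alone were 8.25% and 9.22% of the uninjured and 0.945% to 1.45% of the injured members. Most injured members were thus found by Pi16.

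**Figure D2:**
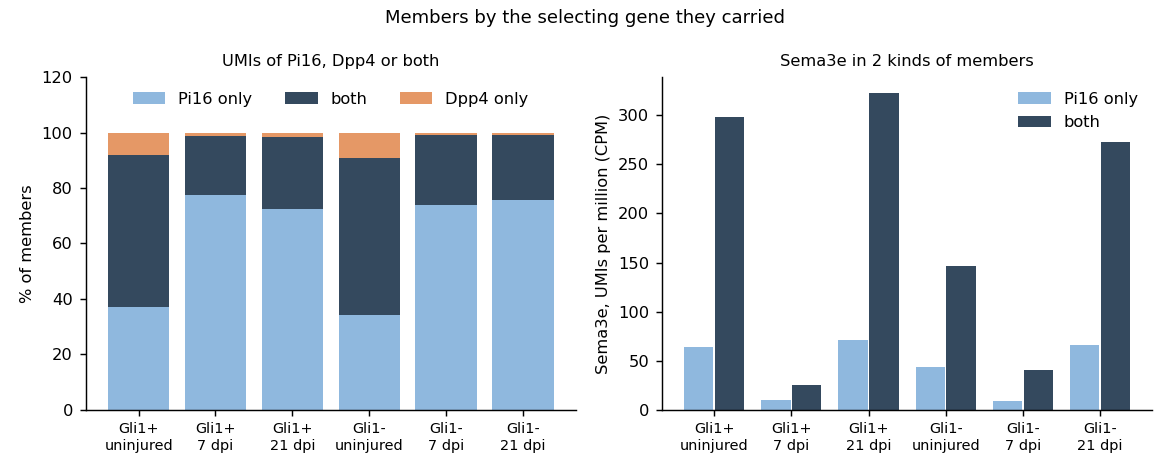
Members of each library divided into cells with Pi16 only, Dpp4 only or both, in percent of members. Cells with both are 54.8% and 56.6% of the members before and 21.5% to 26.2% after injury, and the bars of the right panel, Sema3e in CPM, are higher for them than for cells with Pi16 only in all 6 libraries. The right panel leaves out the cells with Dpp4 only.

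Members with both transcripts also differed from those with Pi16 alone in genes outside the rule. Sema3e, a secreted semaphorin that guides vessels, stood at 298 against 63.5 CPM in Gli1+ uninjured members with both and with Pi16 alone, at 25.01 against 9.61 CPM at 7 dpi and at 323 against 71.3 CPM at 21 dpi. In the Gli1- sort the pairs were 147 against 43.6, 40.9 against 9.05 and 273 against 66.0 CPM. The cells with both transcripts were higher than those with Pi16 alone in all 6 libraries. The 14 to 116 members of a library with Dpp4 alone held Sema3e above the cells with both in 5 of the 6, at 26.5 to 501 CPM, and in Gli1+ 21 dpi at 317 CPM. Cd55, the decay-accelerating factor that protects cells from complement, was higher in cells with both than with Pi16 alone in all 6, from 507 against 301 CPM in Gli1+ uninjured to 382 against 119 CPM in Gli1- 21 dpi. Gnas, which encodes the stimulatory G protein subunit that raises cyclic AMP, was lower in the cells with both than in those with Pi16 alone in all 6 libraries, by the most at 21 dpi (1382 against 1935 CPM in Gli1+ and 1421 against 1919 CPM in Gli1-). At the limit of the rule, cells with exactly 2 and with exactly 1 UMI of Pi16 and Dpp4 held Cd55 at 163 and 163 CPM in Gli1+ uninjured, 69.8 and 55.6 CPM at 7 dpi and 107 and 102 CPM at 21 dpi. In Gli1- cells the pairs were 207 and 143, 88.9 and 56.8, and 111 and 87.1 CPM. Sema3e was lower at 2 UMIs than at 1 in each Gli1+ library, at 49.9 and 78.1, 6.51 and 6.94, and 78.4 and 91.4 CPM. In each Gli1- library it was higher at 2 UMIs, at 47.2 and 31.8, 11.6 and 8.07, and 84.8 and 43.1 CPM.

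The markers that come with the name but not with the rule were higher in the members than in the other Pdgfra cells of every library. Cd55 stood at 424, 139 and 209 CPM in the Gli1+ members and at 408, 189 and 181 CPM in the Gli1- members, 1.73 to 1.95 on the log2 scale above the other Pdgfra cells. Sema3e stood at 230, 13.3 and 140 CPM in the Gli1+ and at 117, 17.4 and 116 CPM in the Gli1- members, against 5.72 to 61.1 CPM in the other Pdgfra cells. Clec3b, the plasminogen-binding protein tetranectin, stood at 954, 445 and 753 CPM and at 1131, 519 and 665 CPM, and its log2 ratio to the other Pdgfra cells ran from 0.42 in Gli1- uninjured to 2.23 in Gli1+ 7 dpi. At 3000 UMIs per cell, 6.75% and 4.18% of the uninjured Gli1+ and Gli1- members held none of the 3 markers, and so did 28.5% and 24.0% at 7 dpi and 19.7% and 24.4% at 21 dpi. The markers of the name were thus missing from more members after injury than in uninjured tendon. Sema3e was detected in 3.60% and 4.13% of the members at 7 dpi against 1.28% and 0.250% of endothelial cells. The members also lay near each other in a space of 2000 variable genes without the genes of the rule and these markers. Of the 15 nearest Pdgfra cells of a member, 53.7% to 69.8% were members, and of those of another Pdgfra cell 12.6% to 20.7%. Members were 21.2% to 33.96% of all Pdgfra cells of a library. They formed most of the neighbors for 58.2% to 78.9% of the members and for 6.24% to 14.5% of the other Pdgfra cells. The remaining members lay mainly among other Pdgfra cells.

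**Figure D3:**
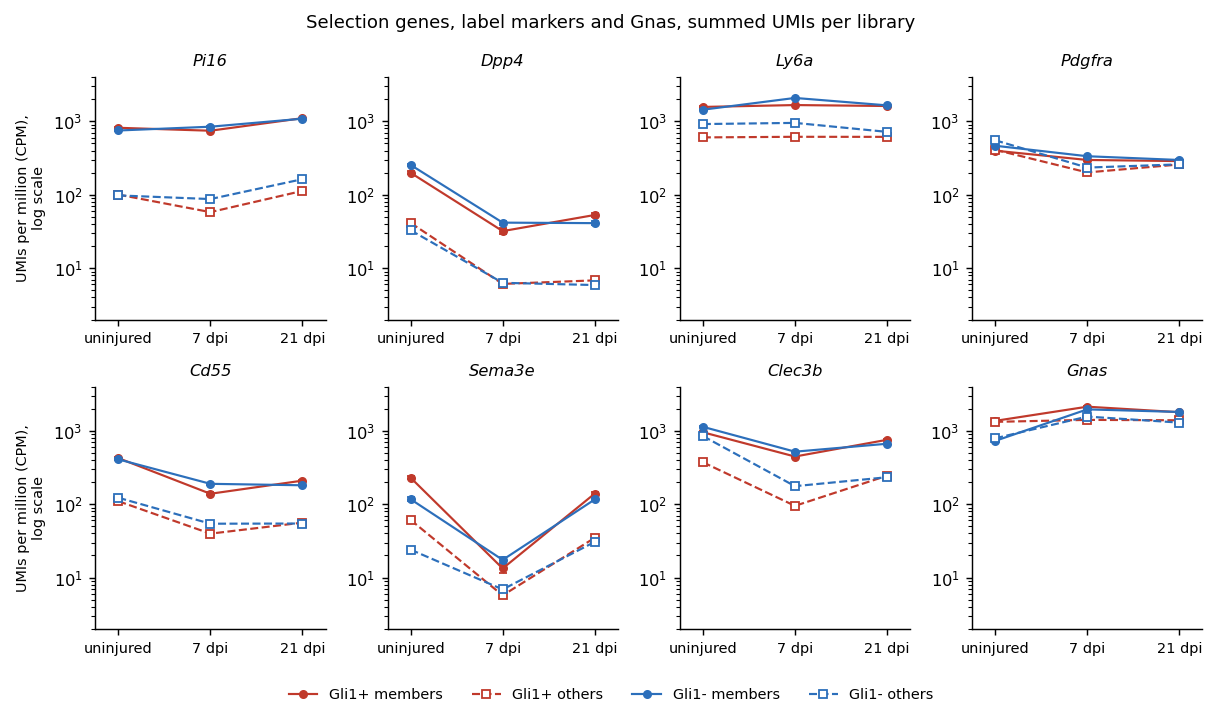
Levels of Pi16, Dpp4, Ly6a, Pdgfra, Cd55, Sema3e, Clec3b and Gnas in the members (filled points) and the other Pdgfra cells (open squares) of each library by time, in CPM on a log axis, with exact Poisson 95% intervals on the members. Cd55 and Sema3e lie higher in the members in all 6 libraries, and Dpp4 falls from 199 and 255 CPM before to 32.0 to 53.1 CPM after injury.

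Over all genes, a difference of at least 1 on the log2 scale (2-fold) in all 6 libraries set 26 genes higher in the members, 0.334% of the 7780 genes tested, and 9 lower, 0.116%. A gene was tested where it reached 10 CPM in the members or in the other Pdgfra cells of every library. Of the 32 adventitial stem fibroblast genes listed, 27 were tested, 8 passed as higher (Efhd1, Pcolce2, Cmah, Sema3c, Has1, Cd248, Adamts5 and Gfpt2) and 0 as lower, with Gfpt2 short of the fold when the rule was applied to thinned cells, and the median log2 ratio ran from 1.05 to 1.29 over the libraries against -0.11 to -0.01 over all genes. Pcolce2, which enhances the trimming of procollagen, stood at 871, 78.5 and 208 CPM in the Gli1+ and 645, 114 and 171 CPM in the Gli1- members, and at 26.5 to 294 CPM in the other Pdgfra cells. Has1, a hyaluronan synthase, stood at 515 to 1406 CPM in the members and 189 to 493 CPM in the other Pdgfra cells. Sema3c, another secreted semaphorin, stood at 297 to 523 CPM in the members and 119 to 139 CPM in the others. These genes were named for passing the fold in all 6 libraries, so whether their ranges overlap is no further result. The list itself was chosen with earlier results of these data known, so its ratios are no independent support for the name of the members. The level of Pcolce2 fell in both kinds of cell after injury. Cd248 (endosialin), a surface protein of perivascular fibroblasts, passed the fold in the members at neither time, at 281, 381 and 310 CPM in the Gli1+ and 313, 470 and 326 CPM in the Gli1- sort, and lay at 77.3 to 219 CPM in the others.

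Other genes with the largest ratios of members to other Pdgfra cells were of varied roles. Pcsk6, a convertase that activates secreted precursors, stood at 295, 58.0 and 67.8 CPM in the Gli1+ and at 582, 94.3 and 77.8 CPM in the Gli1- members, 1.39 to 2.24 on the log2 scale above the other Pdgfra cells. Adgrd1, an adhesion receptor coupled to G proteins, was 1.38 to 1.96 above them, and Heg1, a membrane protein of cell junctions, 1.15 to 2.14. Sfrp4, a secreted Wnt antagonist and the only one of 11 Wnt genes tested to pass, was 1.04 to 1.49 above them (short of the fold with the rule on thinned cells), and Efemp1, the elastic fibre protein fibulin 3, 1.10 to 2.09. Ifi27l2a, an interferon-induced gene, was 1.28 to 2.04 above them. The 9 lower genes included Fmod, Col11a1, Sox6 and Spp1, which are listed for tendon, cartilage or bone, and Fabp4, a fatty acid carrier of fat and capillary cells, with log2 ratios of -3.14 to -1.04. Fmod, a proteoglycan of tendon fibres, stood at 13.9 to 308 CPM in the members and at 75.1 to 879 CPM in the others, with log2 ratios of -4.20 to -1.12. Col11a1, a fibril collagen of cartilage and tendon, had ratios of -2.998 to -1.18, Sox6, a cartilage transcription factor, of -2.32 to -1.01, and Spp1 (osteopontin) of -6.96 to -1.68. The rule left cells with Scx out of the members only. With cells holding Scx, Ptprc or Cdh5 left out of the other Pdgfra cells as well, 4 genes were lower, and Fmod had -0.42 and Fabp4 -0.38 in the library with the smallest difference. Under TMM Sox6 and Fabp4 no longer passed, and with the rule applied to thinned cells Fmod, Col11a1 and Fabp4 did not, so that of the 5 Spp1 alone passed under both.

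After injury, 12 and 16 of the adventitial genes fell in the members at 7 and 21 dpi, and 9 and 7 of the fibrillar collagens and proteoglycans rose. At 7 dpi, 565 of the 8848 genes tested were higher by 1 or more on the log2 scale in both sorts, 6.39%, and 551 were lower, 6.23%. At 21 dpi, 397 of 8755 were higher, 4.53%, and 418 lower, 4.77%. Scaling by the trimmed mean of M-values (TMM) in place of the total adds 0.26 and 0.31 (Gli1+, 7 and 21 dpi) and 0.23 and 0.20 (Gli1-) to these log2 ratios and moves the split to 867 higher and 333 lower at 7 dpi and to 628 and 239 at 21 dpi. Among cells with Y-linked and no Xist UMIs, which allow the comparison at 7 dpi alone, 577 genes were higher and 565 lower at 7 dpi. The words rose and fell below refer to this fold in both sorts with total scaling.

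Of the 32 adventitial genes, 12 fell and 1 rose at 7 dpi and 16 fell and 1 rose at 21 dpi, with medians of -1.07 and -0.91 (Gli1+ and Gli1-) and of -1.06 and -1.001 against -0.13 and -0.11 and -0.16 and -0.09 over all genes. Under TMM 11 fell and 2 rose at both times. Pcolce2 had log2 ratios of -3.47 and -2.50 at 7 dpi and of -2.07 and -1.91 at 21 dpi. Limch1, an actin-binding protein, stood at 96.7, 13.2 and 8.25 CPM in the Gli1+ and at 156, 26.9 and 16.1 CPM in the Gli1- members, and its level in endothelial cells fell as well, from 303 and 319 CPM to 134 to 157 CPM. The gene that rose was Plac8, at 20.2, 378 and 223 CPM in the Gli1+ and 86.1, 399 and 256 CPM in the Gli1- members. It passed the fold in endothelial cells too, where it went from 6.64 and 8.41 CPM to 14.9 to 34.4 CPM. Of the 12 genes that fell at 7 dpi, 10 did not pass the fold in endothelial cells too, and of the 16 at 21 dpi 13 did not.

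Over all members, the 3 markers of the name fell at 7 dpi, and Cd55 alone at 21 dpi. The mix of members with both transcripts and with Pi16 alone changed as well, and its part in these ratios was not tested. From uninjured to 21 dpi, Cd55 went from 507 to 362 CPM (Gli1+) and from 525 to 382 CPM (Gli1-) in members with both. In those with Pi16 alone it went from 301 to 154 and from 232 to 119 CPM. The few members with Dpp4 alone are left out here. Cd55 changed by -1.61 (-1.70 to -1.53) and -1.11 (-1.17 to -1.05) at 7 dpi and by -1.02 (-1.09 to -0.95) and -1.17 (-1.24 to -1.11) at 21 dpi in the Gli1+ and Gli1- sorts. Sema3e changed by -4.11 (-4.34 to -3.89) and -2.75 (-2.91 to -2.59) at 7 dpi, and its levels of 140 and 116 CPM at 21 dpi had ratios of -0.72 and -0.01 to uninjured. Within members with both transcripts, Sema3e went from 298 to 323 CPM (Gli1+) and from 147 to 273 CPM (Gli1-) between uninjured tendon and 21 dpi. Within those with Pi16 alone it went from 63.5 to 71.3 and from 43.6 to 66.0 CPM. Clec3b changed by -1.10 and -1.13 at 7 dpi and by -0.34 and -0.77 at 21 dpi. Under TMM 1 of the 3, Sema3e, remained past the fold at 7 dpi and 0 at 21 dpi. With the rule applied to thinned cells, the smaller change of the sorts was -0.82 and -0.85 for Cd55 at 7 and 21 dpi and -0.70 for Clec3b at 7 dpi, short of the fold. The other Pdgfra cells moved alike, with Cd55 at -1.47 and -1.18 and Sema3e at -3.42 and -1.80 at 7 dpi, and Clec3b moved further in them, to -1.97 and -2.27. The higher level of Sema3e at 21 dpi than at 7 dpi, which cannot be told apart from sex, was seen in both sorts, whereas Dpp4 went from 32.0 to 53.1 CPM in the Gli1+ and from 41.7 to 41.1 CPM in the Gli1- members and remained below uninjured.

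**Figure D4:**
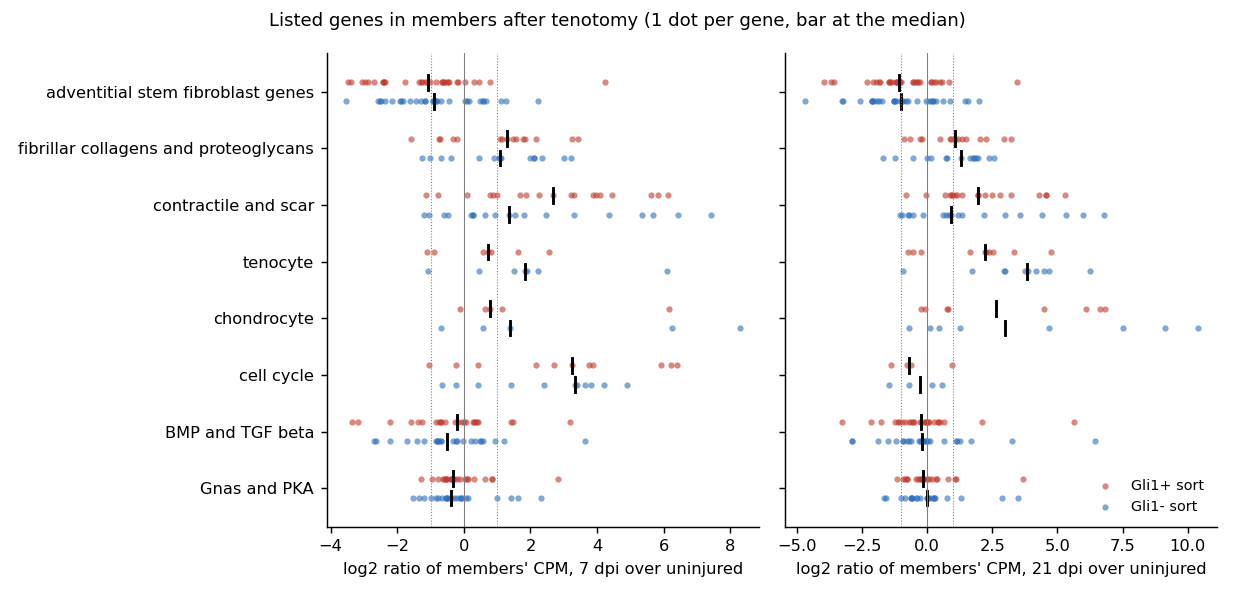
Log2 ratio of the members' levels at 7 and 21 dpi over uninjured tendon, by gene list, for the Gli1+ and Gli1- sorts, with 1 dot per gene and a bar at the median of each list. The adventitial list has medians of -1.07 and -0.91 at 7 dpi, and the fibrillar collagens and proteoglycans 1.31 and 1.08.

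Collagens and scar genes rose in the members and, for the most part, in endothelial cells too. Of 15 fibrillar collagens and proteoglycans, 9 rose and 1 (Dcn) fell at 7 dpi, and 7 rose at 21 dpi. Col1a1, the main collagen of tendon and scar, stood at 1875, 17743 and 14570 CPM in the Gli1+ and at 2208, 20739 and 13102 CPM in the Gli1- members. Of 19 contractile and scar genes tested, 9 rose and 1 fell (Itga11) at 7 dpi and 8 rose at 21 dpi. The fall of Dcn was lost under TMM and with the rule applied to thinned cells, and that of Itga11 under TMM. A fall of 1 gene in either list is near the 6.23% of all genes that fell at 7 dpi. Of the collagens and proteoglycans that rose, 0 stayed within the fold in endothelial cells at either time, and of the scar genes 1 (Tpm1) at 7 dpi and 2 (Tpm1 and Col12a1) at 21 dpi. Cthrc1, a secreted protein of repair fibroblasts, stood at 13.1, 647 and 513 CPM in the Gli1+ and at 10.8, 553 and 441 CPM in the Gli1- members. Postn (periostin), a matrix protein of healing tissue, stood at 206, 3038 and 1937 CPM and at 147, 3004 and 1723 CPM. These genes were named for their rise or with their values known. The endothelial cells moved with them, with Col1a1 at 157 and 175 CPM in uninjured tendon and 4781 and 4004 CPM at 7 dpi and Cthrc1 at 6.64 and 6.26 and then 218 and 185 CPM, and the part of free RNA in the rise was not tested. A Cthrc1 UMI was found, at 3000 UMIs per cell, in 66.8% and 56.1% of the members at 7 dpi and in 38.5% and 28.2% of endothelial cells. Col1a1 in the other Pdgfra cells rose by 1.49 and 2.67 at 7 dpi against 3.24 and 3.23 in the members.

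Cell cycle genes were higher at 7 dpi. Of the 11 tested, 8 rose at 7 dpi and 0 fell. With the rule applied to thinned cells, 2 of 6 rose (Mki67 and Birc5), and 3 of the 8 (Mki67, Ccnb2 and Cenpf) did not pass the fold in endothelial cells too. At 21 dpi 4 of the 20 listed genes reached the 10 CPM needed and 0 passed, so that little can be said of that time. Mki67, present in dividing cells, stood at 5.34, 34.7 and 11.7 CPM in the Gli1+ members and at 0.773, 23.1 and 7.87 CPM in the Gli1- members, above uninjured at 21 dpi as well. In the other Pdgfra cells it reached 52.3 and 41.1 CPM at 7 dpi. At equal depth a Mki67 UMI was found in 4.58% and 3.63% of the members and 5.13% and 8.75% of endothelial cells at 7 dpi. Of the 14 genes listed for quiescence, 1 rose and 5 fell at 7 dpi, and 2 rose (Gas6 and Cdkn2c) and 0 fell at 21 dpi. Over all genes 6.39% rose and 6.23% fell at 7 dpi, and 4.53% rose at 21 dpi, so that 1 rise of 14 is no result about the list. Under TMM Cdkn1c and Cdkn2c, of the same list, rose at 7 dpi. Cdkn1a, an inhibitor of the cell cycle, fell at 7 dpi and stood at 479, 55.9 and 177 CPM in the Gli1+ and 161, 43.2 and 145 CPM in the Gli1- members, and endothelial cells went from 690 and 341 to 136 and 114 CPM at 7 dpi.

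Some signals to other cells passed the fold. Of 19 chemokines and cytokines, 7 rose and 2 fell at 7 dpi, and 7 rose and 3 fell at 21 dpi. Over all genes 6.39% rose and 6.23% fell at 7 dpi, and 4.53% and 4.77% at 21 dpi. The 2 falls of 7 dpi are thus no result about the list. Of the 7 that rose, 2 at 7 dpi (Ccl8 and Cxcl12) and 4 at 21 dpi (Ccl7, Ccl8, Cxcl12 and Cxcl14) did not pass the fold in endothelial cells too. With the rule applied to thinned cells the fall of Ccl11 at 7 dpi was lost, and 5 rose at 21 dpi. Cxcl12, a chemokine that holds blood-forming and immune cells in their niche, stood at 267, 597 and 828 CPM in the Gli1+ and at 386, 787 and 1057 CPM in the Gli1- members. In the other Pdgfra cells it stood at 239, 355 and 406 and at 663, 547 and 554 CPM, so that its log2 ratio of members to others went from 0.16 and -0.78 in uninjured tendon to 1.03 and 0.93 at 21 dpi. Cxcl12 in endothelial cells went down over the same times, from 1219 and 1002 to 240 and 283 CPM. Ccl11 (eotaxin), which attracts eosinophils, fell and stood at 303, 126 and 74.0 CPM and at 1311, 203 and 83.0 CPM. Cxcl5, which attracts neutrophils, rested on 1 UMI in the uninjured Gli1+ members (0.144 CPM) and stood at 2.90 CPM in the Gli1- ones, and at 343, 336, 172 and 203 CPM in Gli1+ and Gli1- at 7 dpi and then at 21 dpi. Cxcl5 in endothelial cells went from 0 and 0.429 CPM to 54.0 and 86.9 and to 13.4 and 39.3 CPM. Slit2, a secreted guidance protein, stood at 7.08, 94.6 and 221 CPM in the Gli1+ and at 2.71, 74.6 and 187 CPM in the Gli1- members, and its log2 ratio to the other Pdgfra cells went from -3.24 and -1.81 to 0.99 and 0.80. Slit2 passed the fold in endothelial cells too, from 3.16 and 5.40 CPM to 14.4 and 30.8 CPM at 21 dpi. Slit2 thus crossed from below to above the other Pdgfra cells in both sorts, and Cxcl12 in the Gli1- sort alone, since the Gli1+ members lay above them at the start as well. These differences were not tested.

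Some Wnt and BMP genes passed the fold, in either direction. Of 13 Wnt genes tested 3 rose and 2 fell at 7 dpi, and 4 rose and 2 fell at 21 dpi. The secreted antagonist Sfrp1 stood at 82.9, 709 and 562 CPM in the Gli1+ and at 51.8, 843 and 655 CPM in the Gli1- members, and the ligand Wnt11 at 65.0, 15.3 and 10.97 CPM and at 80.7, 17.7 and 11.6 CPM. Sfrp1 rose past the fold in endothelial cells too, from 0.632 and 5.40 CPM to 136 and 133 and to 22.6 and 52.7 CPM, and of the Wnt genes that rose, Rspo3 at both times and Dkk3 at 21 dpi did not. Of the BMP and TGF beta genes, 1 of 24 rose and 4 fell at 7 dpi, and 2 of 26 rose and 3 fell at 21 dpi. Over all genes 6.39% rose and 6.23% fell at 7 dpi, and 4.53% and 4.77% at 21 dpi. The BMP and TGF beta genes that rose are thus no result about that list. Bmp2, a ligand of bone and cartilage formation, stood at 200, 19.4 and 21.0 CPM in the Gli1+ and at 183, 29.2 and 25.05 CPM in the Gli1- members. At 21 dpi the other Pdgfra cells held it at 89.7 and 73.1 CPM, with ratios of members to others of -2.10 and -1.54, against 0.53 and 0.71 before injury. Bmp4, another ligand of that family, fell in both sorts at both times, with ratios of -3.17 to -2.14.

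The study asked about the Gnas and protein kinase A pathway, through which cyclic AMP acts. Of its 23 genes tested, 1 rose (Pde4d) and 1 fell (Adcy9) at 7 dpi, and 2 rose (Pde4d and Nr4a2) and 1 fell (Pkia) at 21 dpi. Over all genes 6.39% rose and 6.23% fell at 7 dpi and 4.53% and 4.77% at 21 dpi, so that counts of 1 and 2 of 23 are no result about the pathway. Neither fall passed under TMM, and that of Pkia did not with the rule applied to thinned cells. Gnas stood at 1362, 2126 and 1788 CPM in the Gli1+ members and at 727, 1955 and 1802 CPM in the Gli1- members. Its log2 ratio over uninjured was 0.64 (0.61 to 0.68) and 0.39 (0.36 to 0.42) in the Gli1+ and 1.43 (1.39 to 1.46) and 1.31 (1.27 to 1.35) in the Gli1- members, short of the fold in the Gli1+ sort. In the other Pdgfra cells the ratios were 0.09 and 0.07 and 0.98 and 0.71. The members and the other Pdgfra cells were alike in uninjured tendon, at 1362 and 1321 CPM in the Gli1+ and 727 and 789 CPM in the Gli1- sort, and the members lay 0.33 to 0.60 higher on the log2 scale in the 4 injured libraries. Cells that met the rest of the rule with 1 UMI of Pi16 and Dpp4 lay closer to the members. They held Gnas at 1751 and 1781 CPM at 7 dpi and at 1813 and 1476 CPM at 21 dpi (Gli1+ and Gli1-). In Gli1+ 21 dpi they thus lay above the members, and in the other injured libraries below them. Pde4d, a phosphodiesterase that breaks down cyclic AMP, stood at 32.6, 230 and 424 CPM and at 40.8, 201 and 463 CPM, below the other Pdgfra cells in all 6 libraries. Its level in endothelial cells went from 83.4 and 57.7 CPM to 446 and 535 CPM at 21 dpi.

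Several tendon and cartilage genes were higher in the members at 21 dpi. The 12 tenocyte genes listed summed to less in the members than in the other Pdgfra cells of every library, and the 12 chondrocyte genes to more, through Tnfaip6, a hyaluronan-binding protein, at 1590 to 2832 CPM in the members and 621 to 1875 CPM in the others. In the uninjured Gli1- members Fmod and Tnmd gave 13.9 and 6.96 of the 3574 CPM of the tenocyte sum. Other listed genes, which include Egr1, make up most of it, so it is no measure of tenocyte identity. The rule also left cells with Scx out of the members only. Of 10 tenocyte genes tested at 21 dpi 7 rose, and of 8 chondrocyte genes 4 rose. With the rule applied to thinned cells these were 6 of 8 and 2 of 5. Tnmd (tenomodulin), a membrane protein of tenocytes, stood at 20.2, 35.8 and 93.6 CPM in the Gli1+ and at 6.96, 32.6 and 94.9 CPM in the Gli1- members, and at 243 and 184 CPM in the other Pdgfra cells of 21 dpi. Fmod stood at 47.9, 79.3 and 232 CPM and at 13.9, 49.7 and 308 CPM in the members. For 6 of the 7 tenocyte genes, Fmod and Tnmd among them, the endothelial cells did not pass the fold in both sorts. The same held for 1 of the 4 chondrocyte genes, Col9a2. Endothelial cells with a Fmod UMI at equal depth nevertheless went from 5.60% to 12.98% (Gli1+) and from 3.28% to 19.6% (Gli1-) at 21 dpi. Those with a Tnmd UMI went from 1.68% to 2.40% and from 1.18% to 6.42%. Among the members of 21 dpi the shares were 25.9% and 31.1% for Fmod and 15.1% and 14.3% for Tnmd. Col2a1, the collagen of cartilage, stood at 119 and 259 CPM in the Gli1+ and Gli1- members at 21 dpi, where the 1% of members with the most UMIs of it held 91.2% and 88.0% of these UMIs. At equal depth a Col2a1 UMI was found in 3.54% and 9.58% of those members and in 5.29% and 9.49% of endothelial cells. Mmp13, a collagenase of cartilage and bone, stood at 203 and 417 CPM at 21 dpi, with 2 UMIs in the uninjured Gli1+ and 0 in the uninjured Gli1- members, and a UMI of it was found in 15.6% and 26.9% of members and 16.8% and 23.5% of endothelial cells. The shares of cells with a UMI of Col2a1 or Mmp13 were thus at similar levels in members and endothelial cells, although a few members held most of the Col2a1 UMIs. Of the Mmp13 UMIs at 21 dpi, 1% of the members held 56.7% and 41.6%. The part of free RNA was not tested. Ptn (pleiotrophin) and Mdk (midkine), related growth factors, rose at both times, Ptn from 11.6 and 6.19 CPM to 348 and 366 CPM at 7 dpi and Mdk from 9.10 and 13.7 CPM to 88.0 and 97.9 CPM. Mdk passed the fold in endothelial cells at both times, from 2.53 and 4.29 CPM to 11.3 to 45.9 CPM. Ptn did not do so in both sorts at either time. At equal depth, though, a Ptn UMI was found in 9.24% and 2.85% of uninjured endothelial cells and in 26.9% and 18.75% at 7 dpi. For the members of 7 dpi the shares were 35.65% and 34.1%.

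**Figure D5:**
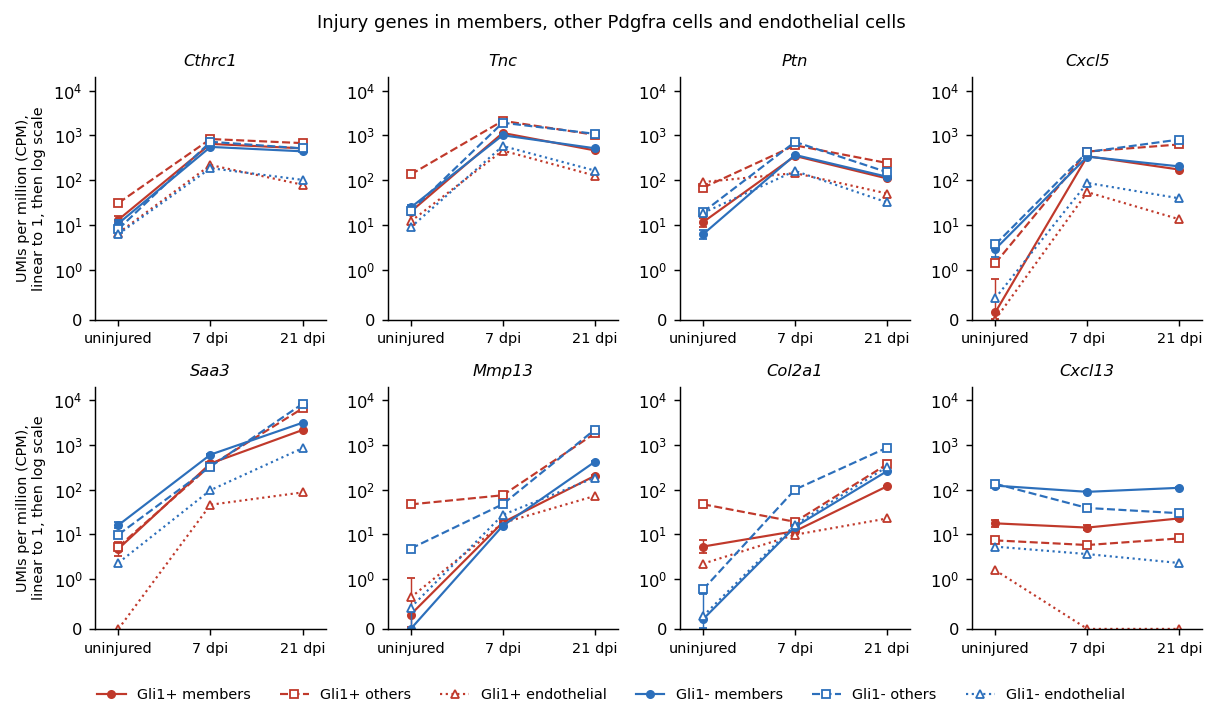
Levels of Cthrc1, Tnc, Ptn, Cxcl5, Saa3, Mmp13, Col2a1 and Cxcl13 by time in members, other Pdgfra cells (squares) and endothelial cells (triangles) of each sort, in CPM on an axis that is linear to 1 and logarithmic above, with exact Poisson 95% intervals on the members. Mmp13 and Col2a1 go up in endothelial cells as in the members, whereas Cxcl13 stays at 0 to 5.32 CPM in endothelial cells.

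The genes with the largest falls included Inmt, C7 and Abca8b at both times. Inmt, a methyltransferase, stood at 189, 11.3 and 17.5 CPM in the Gli1+ and at 775, 34.8 and 23.7 CPM in the Gli1- members. C7, a late complement component, stood at 254, 6.005 and 7.14 CPM and at 123, 8.96 and 12.5 CPM. The lipid transporter Abca8b stood at 169, 14.9 and 18.5 CPM and at 420, 25.04 and 28.1 CPM. The 3 genes were named for the size of these falls, and the other Pdgfra cells moved alike, with C7 at -5.10 and -4.16 at 7 dpi on the log2 scale. Saa3 and Hp, acute phase proteins, rose, Saa3 from 4.77 and 16.1 CPM to 2138 and 3108 CPM and Hp from 1.88 and 6.77 CPM to 400 and 1132 CPM at 21 dpi. The log2 ratio of Saa3 in members to other Pdgfra cells was -1.60 and -1.40 at 21 dpi, and 1% of the members held 59.5% and 41.0% of its UMIs. Both genes passed the fold in endothelial cells too, where Saa3 stood at 86.4 and 841 CPM and Hp at 39.1 and 316 CPM at 21 dpi. At equal depth a Saa3 UMI was found in 31.8% and 52.8% of the members and 21.6% and 50.4% of the endothelial cells of 21 dpi, and the part of free RNA was not tested.

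Few genes passed the fold between the sorts in the same direction at all 3 times. Among 7932 genes tested, 8 were higher by 1 or more on the log2 scale in the Gli1+ members at all 3 times, 0.101%, and 11 lower, 0.139%. The 8 became 1 with the rule applied to thinned cells and 0 with the filters of the study and likely doublets removed, and the 11 became 10 and 9. The higher genes included the keratins Krt1, Krt5 and Krt14 and the epidermal genes Perp and Lgals7. The part of free RNA in this was not tested. Of the 11 lower genes, Hba-a1, Hbb-bs, Flt1, Rgs5, Myh11, Fabp4 and Adgrf5 mark red cells, vessels or fat. Cxcl13, a chemokine that attracts B cells, stood at 17.6, 14.2 and 22.7 CPM in the Gli1+ members and at 122, 89.1 and 110 CPM in the Gli1- members, and at 0 to 5.32 CPM in endothelial cells. The ratio of Gli1+ to Gli1- members was -2.80 (-3.08 to -2.53), -2.65 (-2.87 to -2.44) and -2.27 (-2.42 to -2.13) on the log2 scale, the Gli1+ members lower at every time. In each library 1% of the members held 40.9% to 95.1% of the Cxcl13 UMIs. In the uninjured Gli1+ members its 122 UMIs lay in 10 cells, with 53 in 1 of them. The intervals of these ratios take every UMI as independent and are thus too narrow. Gli1 itself stood at 9.67, 2.24 and 3.45 CPM in the Gli1+ members and at 6.38, 2.28 and 5.26 CPM in the Gli1- members, so that its transcript did not set the sorts apart. None of the 28 adventitial genes tested passed the fold between the sorts at all 3 times.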

How the data were processed

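Single-cell RNA was measured in 6 libraries of sorted Achilles tendon cells, 1 per condition. The authors deposited raw counts, the UMIs of 33696 genes in each cell barcode, not normalized and without the cell filters that the methods describe. The matrix headers name Cell Ranger 9.0.0, whereas the submitters' processing notes name Cell Ranger 3.1.0, STAR and mm10, so no coordinates are given. All members and gene lists were chosen with earlier results of these data known.

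Counts of a group of cells were summed per library and scaled to CPM. CPM have exact Poisson, shares exact binomial (Clopper-Pearson) and log2 ratios conditional binomial 95% intervals, for counting error only. A gene was tested at 10 CPM or more in the higher group and called at a log2 ratio of 1 in every library or sort compared. A group at 0 was set to 3 UMIs. Named genes were those of the rule and its markers, up to 4 members of each list, and the 10 with the largest ratio in each direction at 50 CPM or more, without sex-linked or predicted genes. Others named here, such as Cdkn1a and Postn, were chosen from the lists after their values were seen. Doublets were kept, and Scrublet (scanpy 1.11.5) was used for an alternative. Python 3.11.15, numpy 2.4.6, scipy 1.17.1 and scikit-learn 1.9.0 were used, and edgeR 4.0.16 in R 4.3.3 for TMM factors alone. The scripts were tested on simulated data. Alternatives covered the rule's limits, depth, doublets, other types' UMIs, sex, scaling and the filter on low values.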

Additional observations from a re-analysis of the deposited data

Results flagged for a closer look

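For 5 of the genes listed, the members of the 2 sorts moved in opposite directions by at least 1 on the log2 scale between uninjured tendon and an injured time, each in 1 library against 1, and the differences were not tested. Comp, a matrix protein of tendon and cartilage, had log2 ratios of -1.11 in the Gli1+ and 1.50 in the Gli1- members at 7 dpi, from 341 to 158 and from 51.6 to 146 CPM. Bglap (osteocalcin), made by osteoblasts, had ratios of -8.49 and 4.99 at 7 dpi, and a single cell held 2510 of its UMIs in the uninjured Gli1+ members and another 359 in the Gli1- members of 7 dpi. Fabp4, a fatty acid carrier of fat and capillary cells, had ratios of 1.94 and -1.43 at 7 dpi, and stood at 3507 to 13780 CPM in the endothelial cells of these libraries against 13.3 to 282 CPM in the members.

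Chrdl1, a secreted BMP antagonist, had ratios of -1.12 and 1.26 at 21 dpi, from 87.1 to 40.1 and from 24.6 to 58.9 CPM. Smad6, an inhibitor inside the BMP pathway, had ratios of -1.22 and 1.16 at 21 dpi, from 35.5 to 15.3 and from 6.96 to 15.6 CPM. For Comp, Chrdl1 and Smad6 the uninjured Gli1+ library stood above the uninjured Gli1- library, and the injured libraries of the 2 sorts lay closer to each other. The uninjured Gli1+ library is also the smallest, with 582 members, and its members are of mixed sex. The part of either in these differences was not tested.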

How the results depend on the processing

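With 1 library per condition, no library could be left out within a group, depth and the pooled mice limit what the shares and levels can show, and the cause of the changes below was not tested. No paired analysis and no test was made. Each condition has 1 library, and the sorts and times are conditions and not replicates. Members and other Pdgfra cells of a library were paired, but the rule itself set them apart on the same counts. Values are log2 ratios of the members' share to uninjured (as reported -0.37 and 0.18 in Gli1+ and 0.36 and 0.58 in Gli1- at 7 and 21 dpi), the pooled share, and counts of genes. Among the 99 values of named genes, 694 of 698 comparisons over 10 settings kept their sign and 67 moved by 0.5 or more on the log2 scale. The other 4 were Pi16 at 7 dpi under 3 settings and Sema3e at 21 dpi without cells holding UMIs of other types (0.42), for which the reported values were within 0.019 of 0.

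With the rule applied to cells thinned to 3000 UMIs, the ratios were 0.021 (reversed) and 0.51 in Gli1+ and 0.59 and 0.80 in Gli1-, the share 18.8%, the genes lower in members 17 and the genes higher in Gli1+ members 1. At 1 UMI of Pi16 and Dpp4 the 7 dpi ratio of Gli1+ was -0.091, those of Gli1- 0.47 and 0.45, the share 37.1% and the genes lower in members 3. At 4 UMIs the 7 dpi ratio of Gli1+ was -0.63, the 21 dpi ratio of Gli1- 0.76, the share 19.8%, the genes lower in members 17 and those lower in Gli1+ members 7. Without the condition on Scx the ratios were -0.15 and 0.36 and 0.56 and 0.81, the share 31.8% and the genes lower in members 4. With the study's filters and likely doublets removed, the 21 dpi ratio of Gli1+ was 0.054, the genes lower in members 14 and those higher in Gli1+ members 0. Without cells holding 2 or more UMIs of other types, the 21 dpi ratio of Gli1+ was 0.48 and those of Gli1- 0.67 and 0.75, and no member remained in Gli1+ 7 dpi, so no value that needs that library could be had. Cells with Xist alone gave 0.053 at 21 dpi in Gli1+, and those with Y-linked UMIs alone 0.19 at 7 dpi in Gli1-, and cells of 1 sex were too few in other libraries. Over all cells past the quality limits, the ratios were 0.67 (reversed) and 1.27 and 0.83 and 0.68, and the share 14.4%. With cells holding Scx, Ptprc or Cdh5 left out of the other Pdgfra cells, the Gli1- ratios were 0.50 and 0.68 and the genes lower in members 4.

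TMM gave 867 genes higher and 333 lower at 7 dpi, and 628 and 239 at 21 dpi. Without a filter on low values, 116 were higher and 98 lower in members, 1481 and 2404 at 7 dpi, 1128 and 3007 at 21 dpi, and 248 and 118 in Gli1+ members, and at 50 CPM the counts were 17 and 2, 272 and 279, 183 and 182, and 2 and 2. The following alternatives were chosen after seeing the data. The Gli1+ libraries alone gave 968 and 1163 at 7 dpi and 751 lower at 21 dpi, and the Gli1- libraries alone 972 lower at 7 dpi and 711 and 923 at 21 dpi. Without genes past the fold in endothelial cells too, 286 were higher at 7 dpi, and 258 higher and 275 lower at 21 dpi. Without the Gli1+ library of 7 dpi, 17 genes were lower in members.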

Other observations

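Some elastic fibre and matrix remodelling genes of the members passed the fold. Over all genes 6.39% rose and 6.23% fell at 7 dpi, and 4.53% and 4.77% at 21 dpi. Of 21 elastic and basement matrix genes, 3 rose at both times (Mfap2, Mfap4 and Emilin1), of which Emilin1 alone did not pass the fold in endothelial cells too, and Efemp1, Lama2 and Ltbp4 fell at 7 dpi, Ltbp4 not so with the rule applied to thinned cells. Mfap4, a microfibril protein, stood at 70.8, 376 and 372 CPM in the Gli1+ and at 79.3, 320 and 371 CPM in the Gli1- members, in the order uninjured, 7 dpi and 21 dpi. Of 21 proteases and inhibitors tested, 8 rose and 2 fell at each time, and the 2 falls are no result about that list. All 8 that rose passed the fold in endothelial cells too, at 7 and at 21 dpi. Mmp3 (stromelysin 1) stood at 54.4, 242 and 788 CPM and at 54.0, 238 and 1098 CPM, and Timp1, an inhibitor of such enzymes, at 53.9, 730 and 478 CPM and at 32.3, 857 and 516 CPM. Timp3, a relative bound to matrix, fell, from 756 to 193 and 257 CPM and from 920 to 276 and 259 CPM. Igf1, a growth factor of connective tissue repair, rose from 347 to 966 and 935 CPM and from 337 to 1194 and 1189 CPM, and in the other Pdgfra cells it reached 817 to 1155 CPM. In endothelial cells Igf1 passed the fold as well, from 28.1 and 34.6 CPM to 72.0 to 198 CPM.

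Ctla2a, a protease inhibitor, rose from 21.2 to 201 and 1480 CPM in the Gli1+ and from 17.1 to 128 and 1173 CPM in the Gli1- members. Endothelial cells held it at 388 and 682 CPM in uninjured tendon and at 1746 to 2867 CPM after injury, above the members of the same library.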
